A study of Mus musculus with 12 samples.

Results

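The genes described here encode the main enzyme families of phase II drug conjugation in mouse liver: glutathione S-transferases of the alpha, mu, pi and theta classes (Gsta, Gstm, Gstp, Gstt), UDP-glucuronosyltransferases (Ugt1, Ugt2, Ugt3) and cytosolic sulfotransferases (Sult1 to Sult5). They were chosen by gene name, as every protein-coding gene whose symbol starts with one of these stems followed by the family number or letter. The rule uses no measured value, but earlier results of these data were known when it was chosen. The rule took 58 of 55487 annotated genes, made up of 18 Gst, 21 Ugt and 19 Sult genes. RNA was sequenced from the livers of 12 male mice aged 16 to 18 months that had been fed ad libitum, 3 biological replicates in each of 4 groups. The groups were fasted mice labelled as hepatocyte-specific Foxo3 knockouts (Foxo3 flox/flox with Alb-cre), fasted Foxo3 floxed controls without Cre, and the same knockouts and controls in the fed state. Fasting lasted overnight. The floxed alleles were present in all 4 groups. The albumin promoter that drives Cre is active in hepatocytes, so Foxo3 in other liver cells is not targeted by this design. No label names a batch, and the column numbers of the tables run in blocks by group, so a cohort or a day of collection cannot be told apart from genotype or feeding.

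Conjugating enzymes make drugs, pollutants, bile pigment, steroids and lipid peroxidation products more soluble in water so that they can leave the body in bile or urine. Glutathione S-transferases attach the tripeptide glutathione to electrophiles, UDP-glucuronosyltransferases transfer glucuronic acid from UDP-glucuronic acid to hydroxyl, carboxyl and amine groups, and sulfotransferases transfer a sulfonate group from the carrier PAPS. Hepatocytes hold most of these enzymes in the liver, and their genes are known targets of the xenobiotic receptors CAR, PXR and AHR, of the oxidative stress regulator NRF2 and, in rodents, of the sex-dependent pattern of growth hormone.

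Library totals were 17520058 to 22414976 counts, of which the 58 genes took 0.653% to 1.09%. Foxo3 was not lower in the libraries labelled knockout, with 46.6, 53.6 and 53.4 CPM in fasted knockout-labelled livers, 44.3, 39.9 and 38.1 CPM in fasted control livers, 59.4, 58.8 and 62.2 CPM in fed knockout-labelled livers and 45.5, 44.5 and 50.4 CPM in fed control livers. In each feeding state every knockout-labelled library lay above every control. The log2 fold change was 0.33 fasted and 0.36 fed, and neither passed in edgeR (adjusted p = 0.45 and 0.68). Which exons were floxed is not stated in the labels, and a count over the whole gene cannot show that a part of it was deleted, so the groups are called knockout-labelled below. The 8 hepatocyte markers in the tables, such as Alb and Ttr, summed to 93596 to 142183 TPM per library, and all 8 were detected in every group. In bulk liver, fewer cells of a type and less RNA per cell cannot be told apart. Fed control replicate 3 stood apart from the other 11 libraries in several of these genes, and values without it are given beside the results that rest on it.

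Of the 58 genes, 43 had enough counts to be tested (17 Gst, 17 Ugt and 9 Sult), 9 had too few and 6 had 0 counts in every library. The genes with too few counts were Ugt1a2, Ugt1a8, Sult2a1, Sult2a2, Sult2a3, Sult2a5, Sult2b1, Sult3a2 and Sult4a1. The genes without a count were Gstt4, Ugt2a1, Ugt2a2, Sult1c1, Sult2a4 and Sult2a6. All tests were made with the quasi-likelihood test of edgeR over 15862 genes, and a gene is called changed at an adjusted p under 0.05. CPM, the count scaled to a common library size with TMM factors, was used to compare libraries. TPM, which also divides by gene length, was used to compare genes.

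A few genes in each family made up most of its transcript. Gstm1, a mu-class transferase, was the highest with 2211 ± 1167 TPM (SD, n = 12 libraries of all groups) and ranked 60 among all 55487 genes. It was above Ugt2b5, the next gene, in 12 of 12 libraries. Ugt2b5 averaged 851 ± 148 TPM, Gsta3 786 ± 179 TPM, Ugt2b36 648 ± 95.4 TPM, Gstp1 539 ± 198 TPM, Sult2a8 483 ± 110.5 TPM and Sult1a1 404 ± 63 TPM. In this order each gene was above the next in only 7, 9, 8, 6 and 9 of 12 libraries. Neighbouring ranks below Gstm1 were thus not separated beyond their spread. Ranks further apart could be, as the lowest Ugt2b5 value (666 TPM) lay above the highest of Sult2a8 (628 TPM). Gsta3 is the alpha-class enzyme known for detoxifying the aflatoxin epoxide in mice, Gstp1 is the main pi-class enzyme, Sult2a8 sulfonates bile acids in mice and Sult1a1 sulfonates simple phenols.

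Further down, Ugt2b1 averaged 398 ± 97.3 TPM, Gstt1, the main theta-class enzyme, 369 ± 70.4 TPM, and Ugt3a2 282 ± 30.1 TPM. Ugt1a1, which conjugates bilirubin, averaged 268 ± 60.1 TPM, a value that may be too low (see the Ugt1a reservation below). Sult1d1, which sulfonates catecholamines, averaged 119 ± 18.9 TPM. In all, 20 genes reached a mean of 100 TPM, 34 reached 10 TPM and 41 reached 1 TPM, while 11 genes with counts stayed under 1 TPM. Gstm1, Gsta3 and Gstp1 together held 73.2% of the summed Gst TPM, and Ugt2b5, Ugt2b36 and Ugt2b1 held 55.0% of the Ugt sum. Sult2a8, Sult1a1 and Sult1d1 held 94.6% of the Sult sum. Sult5a1, with 1.78 ± 0.682 TPM, and Sult3a1, with 1.01 ± 1.46 TPM, were the highest genes of their subfamilies, and Sult4a1 had too few counts for a test.

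**Figure D1:**
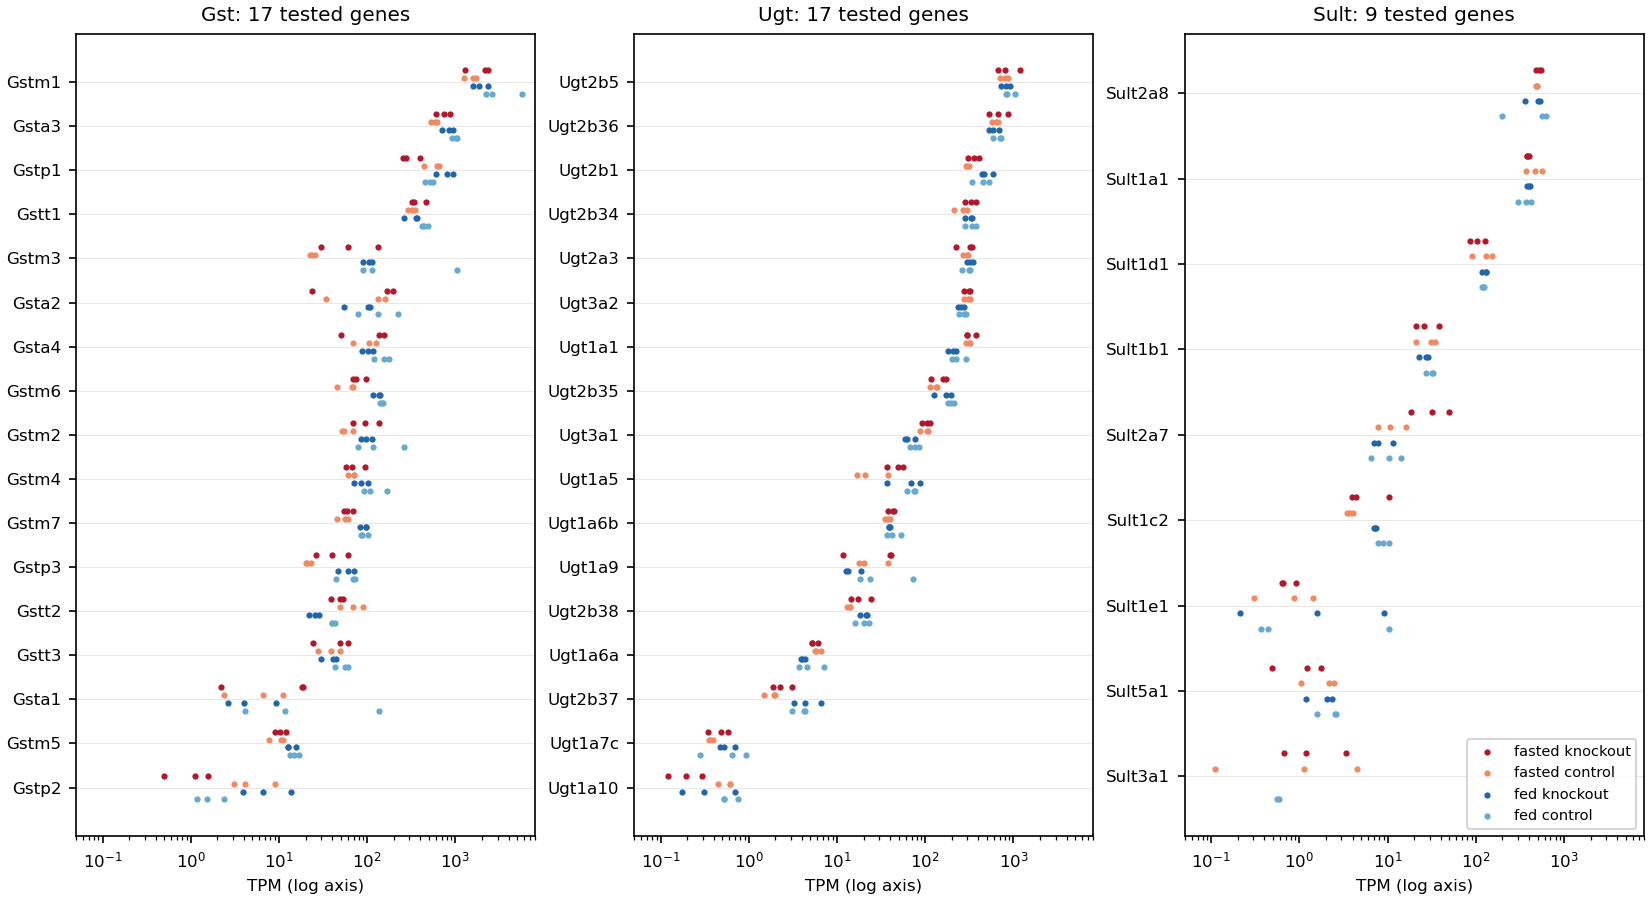
Deposited TPM of the conjugation genes in each of the 12 libraries, on a log axis, for the 43 tested genes by family, with points coloured by labelled group; values of 0 are not drawn. Gstm1 lies above every other gene. In the order Ugt2b5, Gsta3, Ugt2b36, Gstp1 and Sult2a8 each gene overlaps the next. The lowest Ugt2b5 value (666 TPM) lies above the highest of Sult2a8 (628 TPM).

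The summed TPM of the families showed the glutathione S-transferases lowest on average in fasted controls. Gst transcripts summed to 4949, 2948 and 4535 TPM in fasted knockout-labelled livers, 3590.5, 3802 and 3384 TPM in fasted control livers, 4321, 5088 and 4735 TPM in fed knockout-labelled livers and 5553, 4953 and 10142 TPM in fed control livers. The fasted controls lay below both fed groups in every library, and the highest sum was that of fed control replicate 3. Ugt transcripts averaged 3585 ± 729.6 TPM in fasted knockout-labelled, 3210.4 ± 157 TPM in fasted control, 3389.6 ± 392 TPM in fed knockout-labelled and 3611 ± 363 TPM in fed control livers (SD, n = 3 each). Sult transcripts averaged 1078 ± 32.8, 1132 ± 125, 1037 ± 103 and 1007 ± 282 TPM in the same groups. The Ugt and Sult sums overlapped between the groups, and no test was made on them.

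Overnight fasting of control mice lowered 7 conjugation genes and raised 1. Gsta3, Gstm4, Gstm6, Gstm7, Gstp3, Sult1c2 and Ugt1a5 fell, and Gstt2 rose. These 8 of 43 stand beside 4.14% of all tested genes called in this comparison, 2.05% higher and 2.09% lower. The median log2 difference of the 43 genes was -0.44 with 31 negative, beside -0.00 for all tested genes. Libraries of fasted and fed controls did not overlap for 16 genes that were lower and 2 that were higher, against 10.9% and 11.5% of all tested genes. Without fed control replicate 3, 6 genes were called and the median was -0.35. Gsta3, Gstm6, Gstm7 and Gstp3 kept their calls, Ugt2b1 (log2 fold change -0.77, adjusted p = 0.025) and Ugt2b37 (-1.32, 0.043) were then called lower, and Gstm4, Gstt2, Sult1c2 and Ugt1a5 were not called. With other single libraries left out, the number called was 1 for fasted control replicate 3, 2 for fed control replicate 1, 4 for fed knockout replicate 2 and for fasted control replicates 1 and 2, and 5 for fed knockout replicate 3 and fed control replicate 2.

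All 7 Gstm genes, which lie next to each other on chr3:107895821-108044894 (mm10), had negative log2 differences and no overlap between fasted and fed controls, with a median of -1.11, and 3 passed the test. Without fed control replicate 3 all 7 stayed negative, from -0.59 for Gstm5 to -2.13 for Gstm3. Gstm6 had 52.9, 59.9 and 35.9 CPM in fasted control livers, against 124, 119 and 105 CPM in fed control livers (log2 fold change -1.23, SE 0.19, adjusted p = 0.0044, or 2.34-fold lower). Every fasted library lay below every fed one. Gstm7 had 34.6, 43.1 and 28.6 CPM in fasted control livers, against 57.8, 71 and 46.6 CPM in fed control livers (log2 fold change -0.72, SE 0.17, adjusted p = 0.031). Gstm4 had 39.8, 53.7 and 47 CPM in fasted control livers, against 76.4, 68.5 and 98.1 CPM in fed control livers (log2 fold change -0.79, SE 0.19, adjusted p = 0.034). These also did not overlap between fasted and fed controls. The Gstm6 call held whichever library was left out. The Gstm7 call was lost without fed knockout replicate 2, fed control replicate 1 or 2, or fasted control replicate 1 or 3 (adjusted p up to 0.11), and the Gstm4 call without fed knockout replicate 3, fed control replicate 1 or 3, or any fasted control (up to 0.098).

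The other mu-class genes did not pass. Gstm1, the most abundant gene of the set, had 889, 1121 and 719 CPM in fasted control livers, against 1598, 1403 and 2880.1 CPM in fed control livers (log2 fold change -1.11, SE 0.30, adjusted p = 0.06). Gstm3 had 11.5, 13.9 and 13 CPM in fasted control livers, against 62, 50.1 and 476 CPM in fed control livers (log2 fold change -3.93, SE 0.94, adjusted p = 0.055), and its fed mean was set by replicate 3. Without that library its log2 difference was -2.13, with an adjusted p of 0.063, and the libraries still did not overlap. Without it, Gstm1 and Gstm2 differed by -0.73 and -0.79 on the log2 scale.

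Markers of other cell types and of liver zones differed in the same comparison. Of 8 stellate cell markers 8 were negative (median -0.85, and -0.57 without fed control replicate 3), 4 of them without overlap. EdgeR called 0 of them, with 3 under an unadjusted p of 0.05 beside 3080 of all 15862 tested genes, and DESeq2 called Col3a1. Their summed level was 211, 127 and 139.7 TPM in fasted controls and 174, 187 and 346 TPM in fed controls, with overlap. Of 6 endothelial markers 6 were negative (median -0.28, 0 called, 0 under an unadjusted p of 0.05). Without fed control replicate 3, their median was -0.04, with 4 negative and 2 positive. Of 8 Kupffer cell and macrophage markers 5 were positive and 3 negative (median 0.12), and 8 were positive without that library (0.33). Of 4 tested T and NK cell markers 3 were positive and 1 negative (0.22). Without that library 4 were positive (1.63) and Ccl5 was called. Of 10 pericentral genes, which mark the hepatocytes around the central vein, 6 were positive and 4 negative (median 0.38, and 0.25 without fed control replicate 3). Among them Lhpp (log2 fold change 0.93, SE 0.16, adjusted p = 0.0077) and Oat (log2 fold change 1.04, SE 0.25, adjusted p = 0.033) were called higher. The Lhpp call held whichever library was left out, and the Oat call was lost without fed knockout replicate 2 or fed or fasted control replicate 2 or 3 (adjusted p up to 0.12). The pericentral sum was 14057, 15722 and 13164 TPM in fasted controls and 12768, 9241 and 8384 TPM in fed controls, without overlap. Of 8 periportal genes 6 were positive and 2 negative (median 0.31). Among these Pck1, the gluconeogenic enzyme, was called higher (log2 fold change 1.21, SE 0.23, adjusted p = 0.013), whichever library was left out. The part of these cells and zones in the Gst results was not tested.

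Gsta3 fell to 1030.0, 1140.0 and 899 CPM in fasted controls, against 1905, 1731 and 1533 CPM in fed controls (log2 fold change -0.75, SE 0.16, adjusted p = 0.022). The groups did not overlap, and the call was lost without fed control replicate 1 or 2 or fasted control replicate 1 or 3 (adjusted p up to 0.096). Gstp3, a pi-class gene on the same strand as Gstp1 and Gstp2, had 8.16, 8.37 and 7.26 CPM in fasted control livers, against 16.9, 26.8 and 22.7 CPM in fed control livers (log2 fold change -1.48, SE 0.26, adjusted p = 0.011). The lowest fed control lay above the highest fasted control by a factor of more than 2, and the call was lost only without fasted control replicate 3 (adjusted p 0.059). Sult1c2 had 2.87, 3.05 and 2.53 CPM in fasted control livers, against 6.03, 7.01 and 6.58 CPM in fed control livers (log2 fold change -1.22, SE 0.29, adjusted p = 0.034). Ugt1a5 had 31.9, 20.3 and 14.5 CPM in fasted control livers, against 70.7, 70.4 and 47.7 CPM in fed control livers (log2 fold change -1.50, SE 0.35, adjusted p = 0.04). Neither overlapped between the groups, and each call was lost when any of 8 libraries was left out, with adjusted p up to 0.12 for Sult1c2 and up to 0.14 for Ugt1a5. The 4 libraries that could be left out with the call kept were fed knockout replicate 1 and the 3 fasted knockouts for Sult1c2, and fed knockout replicates 1 and 3, fasted knockout replicate 2 and fasted control replicate 1 for Ugt1a5.

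Gstt2, a theta-class gene that also acts on organic hydroperoxides, was the only gene called higher. It had 78.9, 128 and 146 CPM in fasted control livers, against 74.7, 71.1 and 57.3 CPM in fed control livers (log2 fold change 0.79, SE 0.20, adjusted p = 0.046), without overlap. The call was lost when any one of 10 libraries was left out, all but fasted knockout replicate 2 and fasted control replicate 1 (adjusted p up to 0.15). The 8 tested Ugt2 genes had negative log2 differences with a median of -0.42. EdgeR called 0 of them, with 4 under an unadjusted p of 0.05 beside 3080 of all 15862, whereas DESeq2 called Ugt2b35 and Ugt2b37. The most abundant of them, Ugt2b5, had 582, 719 and 509.9 CPM in fasted control livers, against 809, 662 and 548 CPM in fed control livers (log2 fold change -0.16, SE 0.23, adjusted p = 0.76). Of 9 tested Sult genes 5 were positive and 4 negative, and Sult2a8 (log2 fold change 0.06, SE 0.38, adjusted p = 0.96) and Sult1a1 (log2 fold change 0.38, SE 0.19, adjusted p = 0.29) did not pass. Without fed control replicate 3 the log2 difference was -0.35 for Sult2a8 and 0.18 for Sult1a1, neither called.

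**Figure D2:**
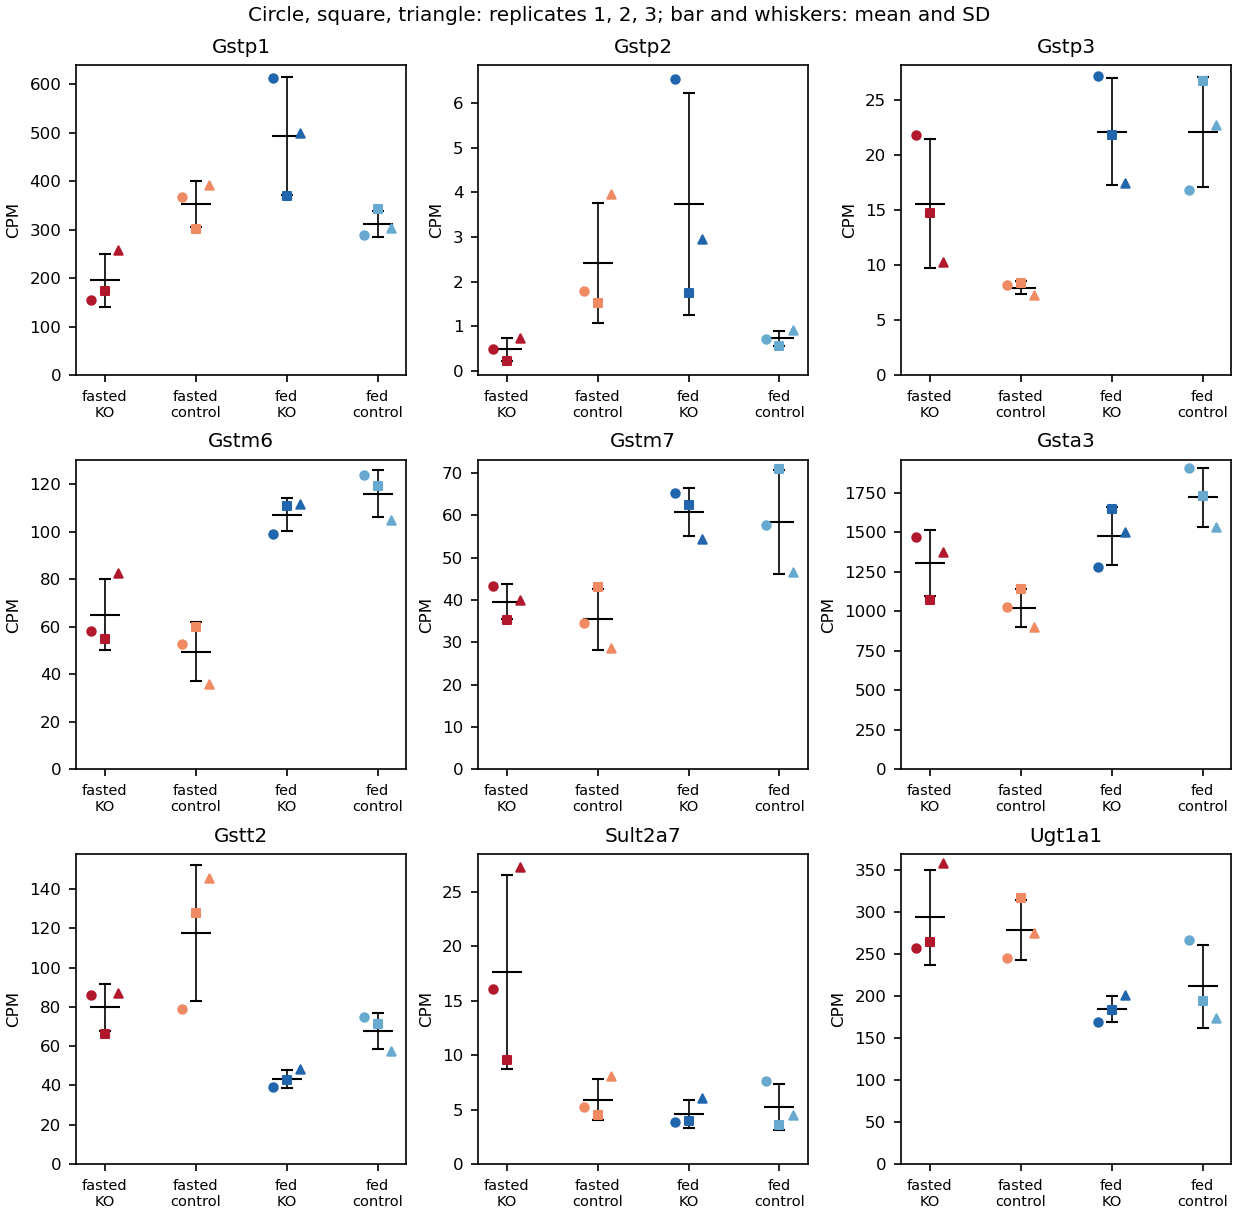
CPM of 9 conjugation genes called in fasted against fed livers, in each library by labelled group (KO, knockout), with the mean and SD of each group (n = 3) as bar and whiskers and a scale of its own in each panel. Gstm6 is lower in every fasted than in every fed library, and Gstp1 is lower in the 3 fasted knockout-labelled livers than in all other libraries.

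In knockout-labelled mice fasting called 4 genes. Gstp1 and Gstp2 fell, and Sult2a7 and Gstt2 rose, of which Gstt2 was also called in controls. These 4 of 43 stand beside 2.48% of all tested genes, 1.36% higher and 1.12% lower. The median log2 difference of the 43 genes was -0.04, beside -0.01 for all tested genes. Libraries did not overlap for 6 genes lower and 6 higher, against 11.8% and 11.5% of all tested genes. The count was 1 without fed or fasted knockout replicate 1, 2 without fed knockout replicate 2 or 3, and 7 without fed control replicate 3. The comparison shares no library with that in controls, but all 12 libraries share the estimate of spread, and whether the effects differ is a question for the interaction given further on.

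Gstp1 had 154, 174 and 257 CPM in fasted knockout-labelled livers, against 613, 369 and 499.9 CPM in fed knockout-labelled livers (log2 fold change -1.34, SE 0.21, adjusted p = 0.0072, or 2.53-fold lower). The highest fasted library lay below the lowest fed one, and the call held whichever library was left out. In the controls it had 367, 301 and 391 CPM in fasted control livers, against 289.5, 343 and 303 CPM in fed control livers (log2 fold change 0.18, SE 0.21, adjusted p = 0.69), with overlap. Gstp2 was far less abundant, with 0.487, 0.225 and 0.749 CPM in fasted knockout-labelled livers, against 6.53, 1.74 and 2.96 CPM in fed knockout-labelled livers (log2 fold change -2.97, SE 0.58, adjusted p = 0.02), or 11, 5 and 13 raw counts against 125, 31 and 55. The groups did not overlap, and the call was lost without fed knockout replicate 1 or fasted knockout replicate 1 or 2 (adjusted p up to 0.089). In controls Gstp2 stood the other way, with 1.78, 1.53 and 3.97 CPM in fasted control livers, against 0.712, 0.561 and 0.908 CPM in fed control livers (log2 fold change 1.74, SE 0.55, adjusted p = 0.1), also without overlap.

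In the same comparison 4 of 4 tested cholangiocyte markers were negative (median -0.48), and Sox9, a transcription factor of bile duct cells, was called lower (log2 fold change -1.20, SE 0.28, adjusted p = 0.038). That call was lost without any one fed knockout, fasted knockout replicate 1 or 3, or fasted control replicate 3 (adjusted p up to 0.19). The 7 cholangiocyte markers summed to 32.9, 56.7 and 32 TPM in fasted and 77.6, 61.3 and 47 TPM in fed knockout-labelled livers, with overlap. Of 10 pericentral genes 9 were positive (median 0.41) and Lhpp was called higher (log2 fold change 0.81, SE 0.16, adjusted p = 0.021), a call lost when any one knockout-labelled library was left out (up to 0.092). The pericentral sum was 14917, 15331 and 15087 TPM in fasted and 7133, 10242 and 10349 TPM in fed knockout-labelled livers, without overlap. The part of these cells and zones in the Gstp results was not tested.

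Gstp1 (chr19:4035407-4037985), Gstp2 (chr19:4040285-4046023) and Gstp3 (chr19:4057477-4059569, all mm10, minus strand) are neighbours. Of the 50-base stretches in their annotated transcripts, 33.7% of those of Gstp1 and 54.3% of those of Gstp2 also occur in another gene, and 0% of those of Gstp3. How the authors' counting treated reads that match several genes is not given in the sources used here, so values of Gstp1 and Gstp2 are uncertain in their split. Gstp2 had 3.16, 1.29 and 2.91 counts per 1000 Gstp1 counts in fasted knockout-labelled livers, 4.85, 5.08 and 10.1 in fasted control livers, 10.7, 4.72 and 5.92 in fed knockout-labelled livers and 2.46, 1.64 and 3.00 in fed control livers. The ratios thus ranged from 1.29 to 10.7. With the 3 pi-class genes summed, fasting in knockout-labelled mice gave a log2 fold change of -1.30 (SE 0.20, adjusted p = 0.0055), and in controls the sum did not pass (log2 fold change 0.12, SE 0.20, adjusted p = 0.79). The summed value was close to that of Gstp1.

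The sequences before the RefSeq starts of Gstp1 and Gstp2 are shown because these neighbours had the smallest p-values of the interaction of label and feeding among the conjugation genes. They come from RefSeq (GRCm38.p6), read 5′ to 3′ on the minus strand, and stop where annotated exons begin. For Gstp1 the stretch is chr19:4037986-4038162, which runs from 250 to 74 bases before the RefSeq start. For Gstp2 it is chr19:4042264-4042471, which runs from 250 to 43 bases before the RefSeq start. That start lies 3802 bases inside the Gstp2 gene as the deposited table bounds it, so the stretch precedes the RefSeq transcript and not the outermost annotated one. Capitals mark bases with no identical partner in the alignment of the pair, 31 in Gstp1 and 29 in Gstp2.
Gstp1: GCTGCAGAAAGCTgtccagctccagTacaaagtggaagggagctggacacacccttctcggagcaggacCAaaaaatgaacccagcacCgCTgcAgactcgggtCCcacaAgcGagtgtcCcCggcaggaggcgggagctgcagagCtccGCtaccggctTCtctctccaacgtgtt
Gstp2: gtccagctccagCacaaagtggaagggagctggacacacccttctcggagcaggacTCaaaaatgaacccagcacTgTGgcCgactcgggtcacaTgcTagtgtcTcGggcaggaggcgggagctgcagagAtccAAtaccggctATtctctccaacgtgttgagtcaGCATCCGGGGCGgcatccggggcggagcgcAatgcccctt
Over the full 250 bases the 2 promoters were 78.1% identical in alignment, whereas Gstp3 was 50% identical to Gstp1 and 46.5% to Gstp2. The 7 Gstm promoters, whose genes were lower together after fasting in controls, were 42.7% to 51.6% identical between pairs.

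Sult2a7, a member of the mouse Sult2a cluster on chromosome 7, had 16.1, 9.57 and 27.2 CPM in fasted knockout-labelled livers, against 3.82, 3.94 and 6.03 CPM in fed knockout-labelled livers (log2 fold change 1.93, SE 0.41, adjusted p = 0.033). The groups did not overlap, and 0% of its 50-base stretches occur in another gene. The call was lost without any of the 3 fed knockouts or without fasted knockout replicate 1 or 3 (adjusted p up to 0.17). In controls the gene had 5.19, 4.47 and 8.1 CPM in fasted control livers, against 7.6, 3.6 and 4.54 CPM in fed control livers (log2 fold change 0.18, SE 0.40, adjusted p = 0.85), with overlap. Gstt2 was higher after fasting here too, with 86, 65.9 and 87.1 CPM in fasted knockout-labelled livers, against 38.9, 42.8 and 48.2 CPM in fed knockout-labelled livers (log2 fold change 0.88, SE 0.20, adjusted p = 0.042). The call was lost when any one of 8 libraries was left out, all but fed control replicate 3, fasted knockout replicate 2 and fasted control replicates 1 and 3 (adjusted p up to 0.19).

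Sult3a1, which is known to be higher in female than in male mouse liver, had 0 counts in all fed knockout-labelled livers. It had 35, 7 and 10 counts in fasted knockout-labelled livers, 1, 41 and 12 in fasted controls and 6, 6 and 0 in fed controls. A floor of 3 counts over the group puts the fasted knockout-labelled livers at least 15.5-fold higher than the fed ones, but the gene was not called (adjusted p = 0.18). The floor also puts the fed knockout-labelled livers at least 3.44-fold lower than fed controls. With Sult3a1 set at these bounds the medians over the 43 genes were unchanged.

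The mu class also had negative log2 differences with fasting in knockout-labelled livers, 7 of 7 and a median of -0.40. However, edgeR called 0 of them, with 3 under an unadjusted p of 0.05 beside 2321 of all 15862, whereas DESeq2 called Gstm6 and Gstm7. Gstm6 had 58.2, 54.8 and 82.5 CPM in fasted knockout-labelled livers, against 99.2, 111 and 111 CPM in fed knockout-labelled livers (log2 fold change -0.72, SE 0.18, adjusted p = 0.064), and the libraries did not overlap. Gsta3 had 1471, 1069.7 and 1378 CPM in fasted knockout-labelled livers, against 1284, 1646 and 1504 CPM in fed knockout-labelled livers (log2 fold change -0.18, SE 0.16, adjusted p = 0.69), with overlap. Gstp3 had 21.8, 14.7 and 10.3 CPM in fasted knockout-labelled livers, against 27.2, 21.8 and 17.4 CPM in fed knockout-labelled livers (log2 fold change -0.50, SE 0.26, adjusted p = 0.41), and fasted knockout replicate 1 lay within the fed range. Gstm5, Gstm6 and Gstm7 were lower without overlap in both genotypes, and Gstt2 was higher without overlap in both, beside 3.46% and 3.77% of all tested genes that were so in these directions.

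Averaged over both genotypes, fasting called 14 genes, 10 lower and 4 higher, beside 9.07% of all tested genes, 4.52% lower and 4.55% higher. The count was 9 without fed knockout replicate 2 or 3, fasted knockout replicate 2 or fasted control replicate 3. The 10 were Gsta3, Gstm4, Gstm5, Gstm6, Gstm7, Gstp1, Gstp3, Sult1c2, Ugt1a5 and Ugt2b37, and the 4 were Gstt2, Sult2a7, Ugt1a1 and Ugt3a1. The median over the 43 genes was -0.33, with 30 negative, beside -0.01 for all tested genes. This mean rests on the same libraries as the comparisons within each genotype and is not independent of them. The average of Gstp1 (log2 fold change -0.58, SE 0.15, adjusted p = 0.028) joins a fall in one genotype and no call in the other.

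Ugt1a1, the bilirubin-conjugating enzyme, had 258, 265 and 359 CPM in fasted knockout-labelled livers, 246, 317 and 275 CPM in fasted control livers, 169, 184 and 201 CPM in fed knockout-labelled livers and 267, 194 and 174 CPM in fed control livers. It rose by 0.54 on the log2 scale (SE 0.12, adjusted p = 0.017). The libraries did not overlap between fasted and fed knockout-labelled livers and overlapped in controls. Ugt3a1, whose human counterpart uses N-acetylglucosamine in place of glucuronic acid, had 109, 97.8 and 127 CPM in fasted knockout-labelled livers, 89, 129 and 111 CPM in fasted control livers, 67.3, 66.2 and 83 CPM in fed knockout-labelled livers and 95, 77.3 and 71.1 CPM in fed control livers (log2 fold change 0.53, SE 0.11, adjusted p = 0.01). Ugt2b37 had 1.42, 1.71 and 2.48 CPM in fasted knockout-labelled livers, 1.43, 1.24 and 1.43 CPM in fasted control livers, 3.5, 5 and 2.48 CPM in fed knockout-labelled livers and 3.32, 3.55 and 2.04 CPM in fed control livers (log2 fold change -1.04, SE 0.23, adjusted p = 0.012). Gstm5 had 5.97, 5.35 and 4.95 CPM in fasted knockout-labelled livers, 5.49, 4.41 and 5.23 CPM in fasted control livers, 6.95, 6.52 and 8.07 CPM in fed knockout-labelled livers and 7.12, 8.09 and 7.45 CPM in fed control livers (log2 fold change -0.49, SE 0.11, adjusted p = 0.014). These 4 calls, and those of Gstm6, Gstm7, Gstp3 and Gstt2, held whichever library was left out. The 6 others did not. Gsta3 was lost without fed knockout replicate 2 or 3, fed control replicate 1, fasted knockout replicate 2 or fasted control replicate 3 (adjusted p up to 0.067). Gstm4 was lost without fed or fasted knockout replicate 2 or 3 or fasted control replicate 1 or 3 (up to 0.068), and Gstp1 without fed knockout replicate 1 or 3, fasted knockout replicate 1 or 2, or fed or fasted control replicate 2 (up to 0.075). Sult1c2 was lost when any library but fasted knockout replicate 1 was left out (up to 0.087). Ugt1a5 was lost when any library but fed knockout replicate 1, fed control replicate 3 or fasted control replicate 1 was left out (up to 0.084), and Sult2a7 when any but fed knockout replicate 3, fed control replicate 1 or fasted knockout replicate 2 was left out (up to 0.10).

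The Ugt1a values need a reservation. The first exons of this locus on chromosome 1 are spliced to shared exons, and most Ugt1a exon sequence is also annotated under other Ugt1a genes, so reads in the shared exons cannot be assigned to 1 of them. They were not given to every gene, as Ugt1a8 had 8 counts in all and Ugt1a1 58856. TPM divides by the full exon length, 2224 bases for Ugt1a1, of which 913 are its own. Ugt1a levels in TPM, and shares of the Ugt sum, may thus be off, with Ugt1a too low. With all Ugt1a genes summed, fasting did not pass the test in knockout-labelled livers (log2 fold change 0.46, SE 0.16, adjusted p = 0.18) or in controls (log2 fold change 0.06, SE 0.16, adjusted p = 0.88). In the mean of both genotypes, where Ugt1a1 and Ugt1a5 were called, the sum did not pass (log2 fold change 0.26, SE 0.11, adjusted p = 0.18). Sult1c2 kept its value when Sult1c1 was added, since Sult1c1 had 0 counts.

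**Figure D3:**
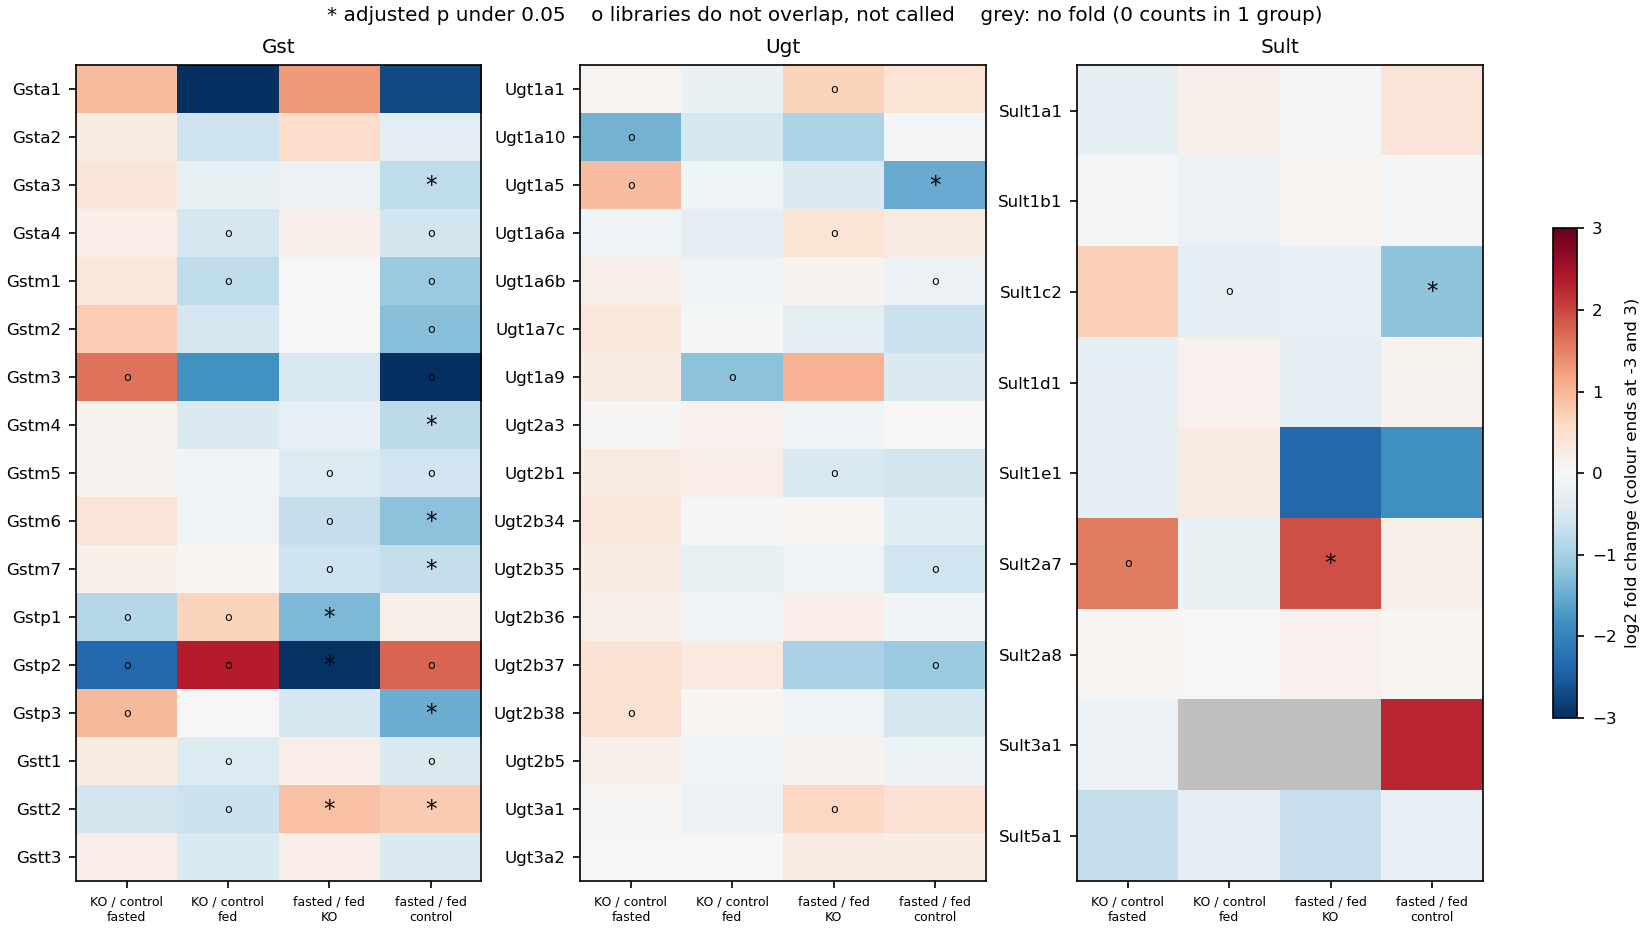
Log2 fold changes of the 43 tested genes (rows, by family) between labelled groups in 4 comparisons (columns), on a colour scale that ends at -3 and 3, with an asterisk for an adjusted p under 0.05, a circle where libraries do not overlap without a call, and grey where a group had 0 counts. The 7 Gstm rows are negative for fasting in controls, and Gstp1 and Gstp2 change sign between the fasted and the fed genotype columns.

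For genotype, 0 of the 43 genes passed the test in fed livers, where 0% of all 15862 genes passed. At an unadjusted p under 0.05 there were 7, beside 970 of all 15862. DESeq2, which called 1.11% of the 3151 genes to which it gave an adjusted p, and limma called 0. Genes without an adjusted p could not be called by DESeq2, and how many of the 43 were among them is not given here. The median was -0.17, with 32 negative, beside -0.01 for all tested genes, and it was -0.26 without fed control replicate 3. Libraries did not overlap for 2 genes higher in knockout-labelled livers, Gstp1 and Gstp2, and 6 lower, Gsta4, Gstm1, Gstt1, Gstt2, Sult1c2 and Ugt1a9, against 6.3% and 5.99% of all tested genes. The log2 difference of Ugt1a9 was -1.24, and -0.56 without fed control replicate 3. The fed control libraries used here are also those of the fasting comparison in controls.

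Gstp1 had 613, 369 and 499.9 CPM in fed knockout-labelled livers, against 289.5, 343 and 303 CPM in fed control livers (log2 fold change 0.66, SE 0.21, adjusted p = 0.78). Gstp2 had 6.53, 1.74 and 2.96 CPM in fed knockout-labelled livers, against 0.712, 0.561 and 0.908 CPM in fed control livers (log2 fold change 2.36, SE 0.55, adjusted p = 0.68). For both, the lowest knockout-labelled library lay above the highest control. Gstt2 had 38.9, 42.8 and 48.2 CPM in fed knockout-labelled livers, against 74.7, 71.1 and 57.3 CPM in fed control livers (log2 fold change -0.64, SE 0.20, adjusted p = 0.78). Gstt1 had 171, 224 and 220.5 CPM in fed knockout-labelled livers, against 279.9, 278 and 258 CPM in fed control livers (log2 fold change -0.41, SE 0.16, adjusted p = 0.81). Both were lower without overlap in knockout-labelled livers. None of the 4 passed the adjustment. Without fed control replicate 3 the log2 differences were 0.63 for Gstp1, 2.54 for Gstp2, -0.76 for Gstt2 and -0.45 for Gstt1. Gstm1 had 992, 1373 and 1115 CPM in fed knockout-labelled livers, against 1598, 1403 and 2880.1 CPM in fed control livers (log2 fold change -0.76, SE 0.30, adjusted p = 0.81), or -0.38 without that library. Gsta1 had 3.71, 1.01 and 1.56 CPM in fed knockout-labelled livers, against 4.7, 1.68 and 45.5 CPM in fed control livers, and its log2 difference of -3.04 became -0.61 without fed control replicate 3.

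In fasted livers 0 of the 43 genes passed, beside 0.0315% of all tested genes. At an unadjusted p under 0.05 there were 9, beside 1429 of all 15862 tested genes. DESeq2 called 3, Gstp1, Gstp2 and Sult2a7, beside 0.216% of the genes to which it gave an adjusted p, and limma called 0. The median was 0.16, with 32 positive, beside -0.01 for all tested genes. Libraries did not overlap for 5 genes higher in knockout-labelled livers, Gstm3, Gstp3, Sult2a7, Ugt1a5 and Ugt2b38, and 3 lower, Gstp1, Gstp2 and Ugt1a10, against 6.82% and 7.2% of all tested genes.

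Gstp1 had 154, 174 and 257 CPM in fasted knockout-labelled livers, against 367, 301 and 391 CPM in fasted control livers (log2 fold change -0.86, SE 0.21, adjusted p = 0.41). Gstp2 had 0.487, 0.225 and 0.749 CPM in fasted knockout-labelled livers, against 1.78, 1.53 and 3.97 CPM in fasted control livers (log2 fold change -2.35, SE 0.58, adjusted p = 0.41). Both were thus lower without overlap in fasted knockout-labelled livers and higher without overlap in fed ones. Gstp3 stood the other way, with 21.8, 14.7 and 10.3 CPM in fasted knockout-labelled livers, against 8.16, 8.37 and 7.26 CPM in fasted control livers (log2 fold change 0.98, SE 0.26, adjusted p = 0.45). Sult2a7 had 16.1, 9.57 and 27.2 CPM in fasted knockout-labelled livers, against 5.19, 4.47 and 8.1 CPM in fasted control livers (log2 fold change 1.56, SE 0.40, adjusted p = 0.45). Of the 43 genes, 0 were without overlap in the same direction in both feeding states, beside 0.567% of all tested genes higher and 0.366% lower in both.

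Averaged over feeding, the genotype difference passed for 0 of the 43 genes, beside 0.0126% of all tested genes. There were 4 genes at an unadjusted p under 0.05, beside 1255 of all 15862 tested genes, and limma called 0. DESeq2 called Gstt2 alone, beside 0.296% of the genes to which it gave an adjusted p. Gstt2 had 86, 65.9 and 87.1 CPM in fasted and 38.9, 42.8 and 48.2 CPM in fed knockout-labelled livers, beside 78.9, 128 and 146 CPM in fasted and 74.7, 71.1 and 57.3 CPM in fed controls (log2 fold change -0.60, SE 0.14, adjusted p = 0.39). Fasted knockout replicates 1 and 3 lay above the lowest fasted control, so only the fed groups were separate. Gstp3 (log2 fold change 0.49, SE 0.18, adjusted p = 0.6), Ugt1a10 (log2 fold change -0.97, SE 0.39, adjusted p = 0.6) and Sult2a7 (log2 fold change 0.69, SE 0.28, adjusted p = 0.61) followed in order of p. Ugt1a10 had at most 0.712 CPM in any library.

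The interaction asks whether the fasting difference in knockout-labelled livers differed from that in controls. It passed for 0 of the 43 genes, beside 0.0063% of all tested genes. At an unadjusted p under 0.05 there were 10, beside 1141 of all 15862. DESeq2 called Gstp1 and Gstp2, beside 0.299% of the genes to which it gave an adjusted p, and limma called 0. The smallest p-values were those of Gstp2 (log2 fold change -4.71, SE 0.80, adjusted p = 0.19), Gstp1 (log2 fold change -1.52, SE 0.30, adjusted p = 0.23), Sult2a7 (log2 fold change 1.75, SE 0.57, adjusted p = 0.61) and Gstt1 (log2 fold change 0.63, SE 0.22, adjusted p = 0.62). The median was 0.28 with 35 positive, beside -0.01 with 7824 positive for all 15862 tested genes. For most of the 43 genes, the 7 Gstm genes among them, the fasting difference was thus more positive or less negative in knockout-labelled livers than in controls. The median of the 43 was 0.40 without fed control replicate 3. Since 0 passed in edgeR, the calls in one genotype and not in the other are not shown to differ between genotypes by that test.

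Male-biased liver genes differed beside the pi-class genes. Such genes, for example Cyp4a12a, Mup20 and Hsd3b5, are known to be higher in male than in female mouse liver, as is Gstp1. Their summed level over 16 genes was 2274, 5140.1 and 3484 TPM in fasted knockout-labelled livers, 8310.4, 5691 and 12470.3 TPM in fasted control livers, 22093, 12735 and 11184 TPM in fed knockout-labelled livers and 5794, 8331 and 3519 TPM in fed control livers. A fasted knockout-labelled liver held the lowest sum and a fed one the highest, and these 2 groups did not overlap. Of 15 tested genes, 15 were negative for fasting in knockout-labelled livers, with a median of -1.41 and 4 called lower (C6, Cyp2u1, Hsd3b5 and Nudt7). In controls the median was 0.15, and -0.29 without fed control replicate 3, and Nudt7 was called lower. Fed knockout-labelled livers were higher than fed controls in 15 of 15, with a median of 0.87. However, edgeR called 0 of them (2 under an unadjusted p of 0.05, beside 970 of all 15862 tested genes) and DESeq2 called C6. Without fed control replicate 3, 13 of 15 were higher, with a median of 0.50. Of the 4 fasting calls in knockout-labelled livers, that of C6 was lost without fed knockout replicate 1 or 2 or fasted knockout replicate 3 (adjusted p up to 0.086), that of Nudt7 without fed or fasted knockout replicate 1 or 3 (0.078), and those of Cyp2u1 and Hsd3b5 when any one of 10 libraries was left out, all 6 knockout-labelled ones among them (0.15 and 0.17). The Nudt7 call in controls was lost without fed or fasted control replicate 2 or fasted control replicate 3 (0.068).

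Female-biased genes, such as Cyp2b9 and Cux2, summed over 13 genes to 549, 109.5 and 173 TPM in fasted knockout-labelled livers, 69.5, 212 and 91.7 TPM in fasted control livers, 22.9, 30.4 and 36.6 TPM in fed knockout-labelled livers and 108, 60.3 and 377 TPM in fed control livers. Fasted knockout-labelled livers lay above fed ones without overlap, and Acot3 was among the genes called higher of 11 tested (median 1.62). The Acot3 call was lost when any one of the 6 knockout-labelled libraries was left out (adjusted p up to 0.083). In controls Cux2 was called higher (median 0.17), a call lost without fed control replicate 1 or 3 (0.06). Gstp1 and Gstp2 were called lower and Sult2a7 higher with fasting in knockout-labelled livers, the contrast in which the male-biased sums were lower and the female-biased sums higher without overlap. Against fasted controls the male-biased sums of fasted knockout-labelled livers were also lower without overlap, and the female-biased sums overlapped. The part of sex-biased expression in these results was not tested.

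**Figure D4:**
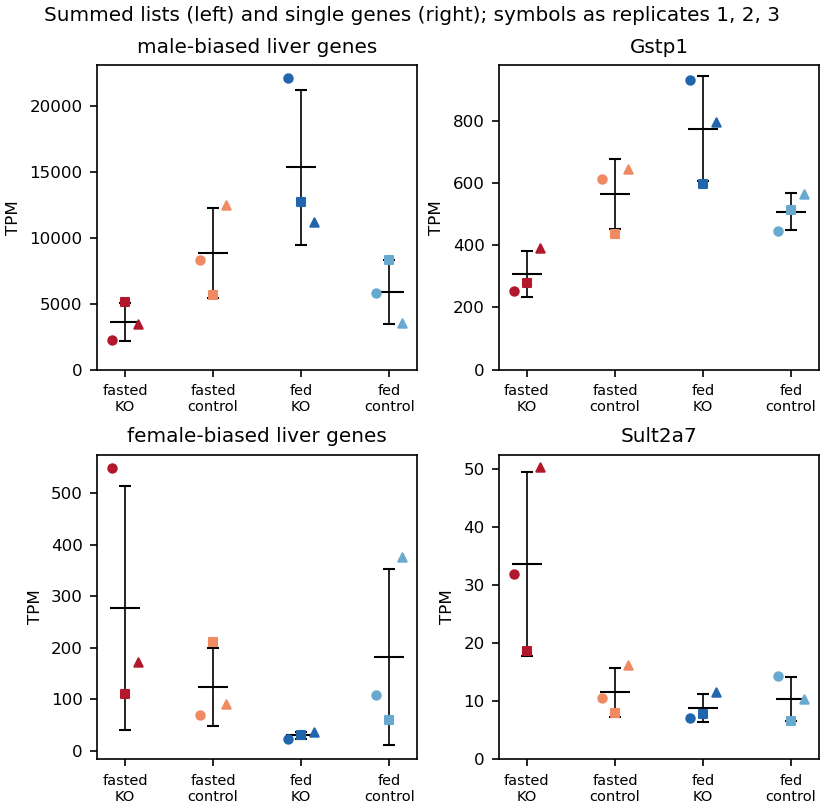
Summed TPM of the male-biased and female-biased lists (left) and TPM of Gstp1 and Sult2a7 (right) in each library by labelled group (KO, knockout), with the mean and SD of each group as bar and whiskers. Gstp1 is lower in the 3 fasted knockout-labelled livers than in all other libraries, and Sult2a7 is higher in them than in all others.

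Of 17 genes that supply the donors for conjugation, 3 were called with fasting in controls and 2 in knockout-labelled livers. Fasting in controls called Cth, which makes cysteine, higher (log2 fold change 1.19, SE 0.25, adjusted p = 0.02) and Papss1 and Slc35b1 lower. Papss1, which makes the sulfonate donor PAPS, had 10.2, 7.69 and 10.3 CPM in fasted control livers, against 15.6, 17.5 and 18.2 CPM in fed control livers (log2 fold change -0.86, SE 0.14, adjusted p = 0.0059), without overlap. In knockout-labelled livers Papss1 (log2 fold change -0.79, SE 0.14, adjusted p = 0.013) and Slc35b1 (log2 fold change -0.55, SE 0.10, adjusted p = 0.016) were also called lower. The Papss1 call in controls held whichever library was left out, and that in knockout-labelled livers was lost without fed knockout replicate 1 or fasted knockout replicate 1 or 3 (adjusted p up to 0.061). The Cth call was lost without fed or fasted control replicate 2 or 3 (0.078), and those of Slc35b1 without any fasted control or fed control replicate 1 or 2 (0.094) and without fed knockout replicate 1 or fasted knockout replicate 1 or 2 (0.092). The median of the list was -0.03 in controls and -0.05 in knockout-labelled livers.

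Of 22 other enzymes, most of them conjugating, fasting in controls called Ephx2 higher (log2 fold change 0.93, SE 0.16, adjusted p = 0.0073). Ephx2 is the soluble epoxide hydrolase, which adds water and attaches no conjugate. In controls Nnmt, which methylates nicotinamide, was also called higher (log2 fold change 1.97, SE 0.38, adjusted p = 0.018), and Hnmt, which methylates histamine, lower (log2 fold change -0.92, SE 0.13, adjusted p = 0.0032). In knockout-labelled livers Ephx2 was called higher (log2 fold change 0.65, SE 0.16, adjusted p = 0.049). Of 12 genes that reverse conjugation or export conjugates, Abcb11, the bile salt pump, was lower in controls after fasting, at 247, 318 and 279 CPM fasted against 528, 558 and 431 CPM fed (log2 fold change -0.85, SE 0.19, adjusted p = 0.024), and Abcc3, which exports glucuronides to blood, was higher in fasted knockout-labelled livers (log2 fold change 0.81, SE 0.16, adjusted p = 0.021). The calls of Ephx2 and Hnmt in controls held whichever library was left out. The others did not: Nnmt was lost without fed control replicate 2 or 3 or fasted control replicate 3 (adjusted p up to 0.067), Abcb11 without any fasted control or fed control replicate 1 or 2 (0.084), Abcc3 without fed knockout replicate 1 or 2 or fasted knockout replicate 1 or 3 (0.11), and Ephx2 in knockout-labelled livers when any library but fed control replicate 3 or fasted control replicate 1 was left out (0.21).

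Among 19 nuclear receptors and other regulators, Nr1i3, which encodes the xenobiotic receptor CAR, rose with fasting in both genotypes. It had 466, 471 and 575 CPM in fasted knockout-labelled livers, 411, 795 and 583 CPM in fasted control livers, 138, 203 and 192 CPM in fed knockout-labelled livers and 341, 214 and 175 CPM in fed control livers, and the fasted groups lay above the fed groups without overlap in each genotype (controls log2 fold change 1.29, SE 0.28, adjusted p = 0.023, and knockout-labelled log2 fold change 1.5, SE 0.28, adjusted p = 0.017). Ahr and Cux2 were also called higher in controls, and Ppara, the fatty acid receptor, in knockout-labelled livers (log2 fold change 0.56, SE 0.13, adjusted p = 0.036). The Nr1i3 call in controls was lost without fed or fasted control replicate 2 or 3 (adjusted p up to 0.086) and that in knockout-labelled livers without fed knockout replicate 1 or fasted knockout replicate 3 (0.092). The Ppara call was lost when any one knockout-labelled library was left out (0.18), and the Ahr call for any library but fasted control replicate 1 or a fasted knockout (0.14). Of 9 targets of CAR, PXR or AHR, most of them P450 genes, Cyp2c55 was called lower in controls (log2 fold change -2.45, SE 0.40, adjusted p = 0.0077). In knockout-labelled livers edgeR called 0, with 2 under an unadjusted p of 0.05 beside 2321 of all 15862, whereas DESeq2 and limma called Cyp2c55 there. Of 9 NRF2 targets outside these families, edgeR called 0 in each of the 7 comparisons. At most 4 were under an unadjusted p of 0.05, for genotype in fed livers, beside 970 of all 15862 tested genes. DESeq2 called Aox1 for fasting in controls. There 9 of 9 were negative with a median of -0.37. With fed control replicate 3 left out, the median was -0.07, with 5 negative and 4 positive. In the genotype comparisons edgeR and limma called 0 genes of the pathway and sex-biased lists, and DESeq2 called Acot3, C6 and Nnmt in fed livers.

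Fed control replicate 3 set the mean of several genes in its group. Gstm3 had 476 CPM in this library and 62.0 and 50.1 CPM in fed control replicates 1 and 2. Gsta1 had 45.5 CPM in it against 4.70 and 1.68 CPM, and Ugt1a9 had 54.9 CPM against 21.5 and 17.3 CPM. Sult1e1, which sulfonates oestrogens, had 97 raw counts (4.4 CPM) in it against 4 and 5 (0.19 and 0.23 CPM). Fed knockout replicate 1 also had 4.81 CPM of Sult1e1. The fasting difference of Sult1e1 in controls was -1.84 on the log2 scale with fed control replicate 3 and 1.04 without it, called in neither case. Sult2a8 was low in it, at 223 CPM against 863 and 806 CPM. Of the untested Sult2a genes, several of which are known to be higher in female mouse liver, Sult2a2 had 38 counts in this library and at most 2 in any other.

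Other genes differed in the same library. Relative to the mean of the other 2 fed controls, 8 of 8 interferon response genes were higher in it (median log2 difference 2.33), as were 4 of 4 tested T and NK cell markers (1.92) and 8 of 8 stellate cell markers (0.86). Of 8 hepatocyte markers 0 were higher (-0.70), and of 15 male-biased genes 0 were higher (-1.60). The 6 T and NK cell markers summed to 45.4 TPM in it and to at most 17.4 TPM in the other libraries, and the 8 interferon genes to 402 TPM against at most 158 TPM. The part of these cells or of interferon in the conjugation genes was not tested.

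**Figure D5:**
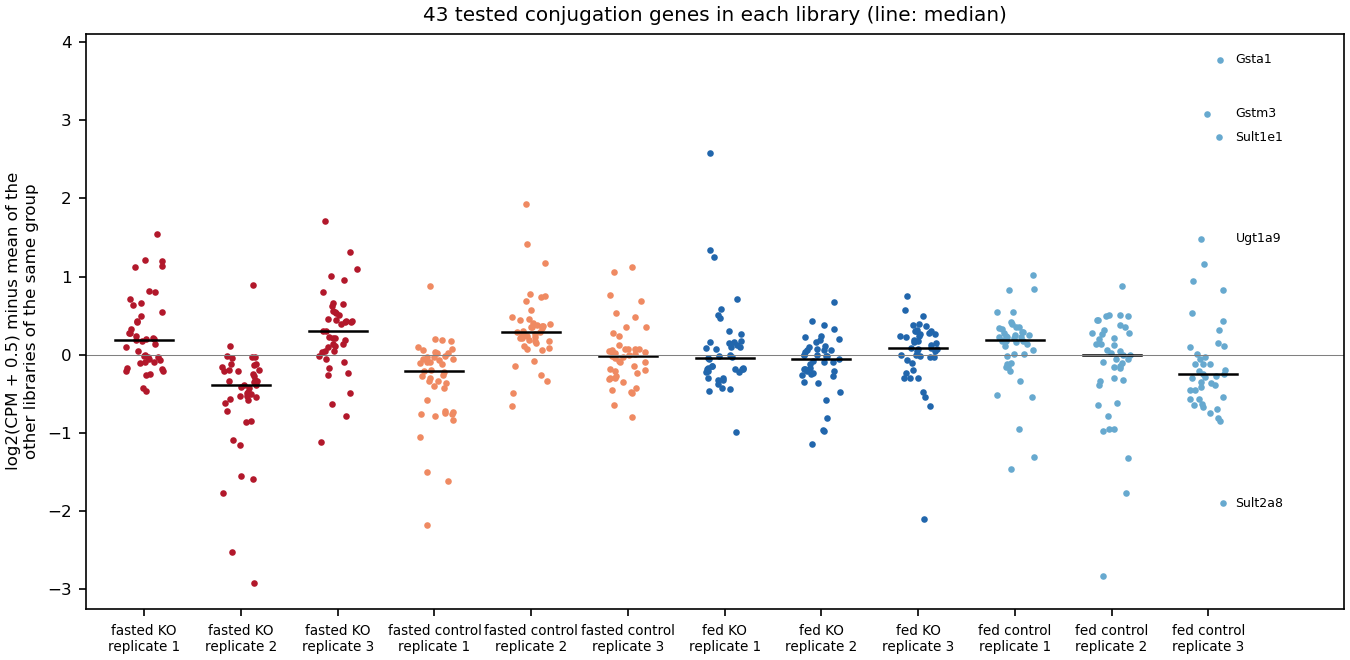
Difference in log2(CPM + 0.5) of each of the 43 tested genes (points) in 1 library from the mean of the other 2 libraries of its group, with the median as a line, for the 12 libraries by label. Gsta1, Gstm3, Sult1e1 and Ugt1a9 stand high and Sult2a8 low in fed control replicate 3, and most genes lie below 0 in fasted knockout replicate 2.

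Spread within groups differed widely between the genes. The coefficient of variation of CPM within groups was 107% for Sult1e1 (2 to 97 counts per library), 92.0% for Gsta1, 71.0% for Gstm3, 55.4% for Gsta2 and 52.3% for Gstp2. It was 6.8% for Ugt1a6b, 9.8% for Gstm5, 11.2% for Ugt3a2, 12.9% for Gsta3 and 14.6% for Gstt1. Gsta1 shares 90.5% and Gsta2 49.8% of their 50-base stretches with other genes, so their separate values are uncertain. In fasted knockout replicate 2, 17 of 17 Gst genes lay below the mean of the other 2 libraries of its group, with a median log2 difference of -0.48. It held the lowest value of the group for 14 of these 17 genes, Gstm5, Gstp1 and Gstp3 being the exceptions.

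Short motifs were counted in the 250 bases before the RefSeq start of 50 of the 58 genes and of 27025 genes in all (GRCm38.p6, both strands). GTTAAT, the core of the HNF1 motif, was found in 28% of the 50 promoters and in 6.52% of all. The 14 genes with it were Gsta3, Sult1a1, Sult1d1, Sult2a3, Sult2a4, Sult2a5, Sult2a6, Sult3a2, Ugt1a1, Ugt1a10, Ugt1a6a, Ugt1a9, Ugt2a3 and Ugt3a1. GTAAACA, a forkhead motif of the kind FOXO proteins recognise, was found in 8% (Ugt1a2, Ugt2b35, Ugt2b37 and Ugt2b38) and in 3.09% of all. TGACNNNGC, the antioxidant response element that NRF2 recognises, was found in 4% (Gsta3 and Gstm5) and in 10.1% of all. GCGTG, the core of the AHR element, was found in 16% and 28.2%, and TTCNNNGAA, the STAT motif, in 6% and 7.18%. In Gstm5 a GCGTG match on the other strand lies within the TGACNNNGC match. Paralogs share sequence, so these genes are not independent, and a match shows letters and no binding.

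The promoters of 3 called genes are shown as examples of these matches, each 5′ to 3′ on the strand of its gene. That of Gsta3 (chr1:21240335-21240584, plus strand) has TGACNNNGC in capitals at 121 to 113 bases before the start. That of Ugt1a1 (chr1:88211709-88211958, plus strand) has GTTAAT, read on the other strand, in capitals at 41 to 36 bases before it. That of Ugt2b37 (chr5:87254805-87255038, minus strand, without the 16 bases next to the start that are annotated as exon) has GTAAACA in capitals at 166 to 160 bases before it.
Gsta3: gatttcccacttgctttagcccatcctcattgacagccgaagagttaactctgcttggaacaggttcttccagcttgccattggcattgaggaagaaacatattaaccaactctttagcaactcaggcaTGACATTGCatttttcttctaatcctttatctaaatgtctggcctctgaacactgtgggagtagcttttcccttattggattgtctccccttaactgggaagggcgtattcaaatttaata
Ugt1a1: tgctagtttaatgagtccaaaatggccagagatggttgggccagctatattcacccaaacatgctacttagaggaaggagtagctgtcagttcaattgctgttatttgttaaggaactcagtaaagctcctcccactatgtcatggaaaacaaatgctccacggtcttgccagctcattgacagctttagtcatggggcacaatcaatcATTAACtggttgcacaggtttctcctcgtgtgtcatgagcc
Ugt2b37: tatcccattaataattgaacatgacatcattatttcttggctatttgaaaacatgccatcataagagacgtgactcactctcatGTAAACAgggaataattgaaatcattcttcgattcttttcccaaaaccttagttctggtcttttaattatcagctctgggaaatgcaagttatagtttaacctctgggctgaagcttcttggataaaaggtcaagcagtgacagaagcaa
Gsta3 was called lower after fasting in controls and Ugt2b37 in the mean over genotypes, while Ugt1a1 was called higher in that mean. Ugt2b37 had genotype differences of 0.30 (SE 0.31, adjusted p = 0.94) in fed and 0.43 (SE 0.33, adjusted p = 0.72) in fasted livers on the log2 scale, neither called.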

How the data were processed

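Bulk liver RNA was sequenced from 12 mice, 3 per group, grouped by the labels' titles. Per the labels' protocols, total RNA from frozen liver was made into strand-specific poly(A) libraries. Per the submitters' processing notes, alignment build was mm10, and DESeq2 1.24.0, featureCounts 1.6.3, HISAT2 2.1.0, Trimmomatic 0.38 and bcl2fastq 2.19 were used. Strand setting, annotation release and the treatment of multiply matching reads: not given in the sources used here. Counts and TPM were deposited by the authors as separate tables. TPM equalled counts over 1 fixed length per gene, scaled per library, within 4.9e-07 for 15589 genes.

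From the counts, genes were filtered with filterByExpr, scaled by TMM (factors 0.923 to 1.12) and tested with edgeR 4.0.16 in R 4.3.3 (quasi-likelihood, robust, 2-sided, 12 libraries in 1 fit with 4 group means, 7 contrasts). P-values were adjusted by Benjamini-Hochberg over 15862 genes. Each sets a group difference against the spread between animals of a group, as estimated in the 1 fit of 12 libraries. SE is the log2 fold change over the root of F. Non-overlap means that every library of one group lay above every library of the other. Alternatives were DESeq2 1.42.0, RLE factors, no filter, a filter of 1 CPM, limma-voom and limma 3.58.1 on log2 TPM with pseudocounts of 1 and 0.1, a replicate block, only the compared groups, a 2-fold minimum, similar copies summed and each library left out. The fit was tested on simulated counts.

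The conjugation genes and the lists were chosen with earlier results of these data known. Named with values are genes called in any comparison, the 4 with the smallest p in each, the 3 highest by TPM of each family and the highest of each subfamily, and genes that fed control replicate 3 or the matched motifs concern, chosen after their values were seen. Identifiers matched the annotation used for shared stretches for 55141 of 55487 genes. Of the genes called in the lists, not all are named, and those called only in the mean of both genotypes are left out.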

Additional observations from a re-analysis of the deposited data

Results flagged for a closer look

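Gstp1 and Gstp2 differed between feeding states in the direction of their genotype difference, since every knockout-labelled library lay below every control when fasted and above every control when fed. They were picked among the conjugation genes for this pattern, and how many of all tested genes share it was not counted. The interaction was -1.52 for Gstp1 and -4.71 for Gstp2 on the log2 scale. With edgeR it did not pass (adjusted p = 0.23 and 0.19), and with DESeq2 it did (adjusted p = 0.0017 and 2.6e-05). For Gstp2 the fasting difference also had opposite signs in the 2 genotypes without overlap. Gstp2 rests on 11, 5 and 13 counts in fasted knockout-labelled livers, 36, 27 and 94 in fasted control livers, 125, 31 and 55 in fed knockout-labelled livers and 15, 12 and 20 in fed control livers. The pair shares part of its sequence, and no cause was tested.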

How the results depend on the processing

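Numbers of conjugation genes called depended on the tool and on single libraries. For fasting, the shares of all genes called under these other settings were not counted. A change in number is therefore not shown to be particular to the conjugation genes. For fasting in controls, 8 became 15 with DESeq2 and 4 with only the compared groups, with the replicate block or with a minimum of 2-fold, and 1 to 9 when a library was left out. For fasting in knockout-labelled livers, 4 became 9 with DESeq2, 2 with limma-voom or with similar copies summed, 7 on log2 TPM with either pseudocount or with only the compared groups, and 1 to 7 when a library was left out. Leaving out fed control replicate 3 gave the 7, and leaving out fed or fasted knockout replicate 1 the 1. In controls, leaving out fasted control replicate 3 gave the 1. For the mean of both genotypes, 14 became 2 with a minimum of 2-fold, 8 with copies summed and 9 to 14 when a library was left out. For genotype and interaction the 0 held when any library was left out (0 to 0), while DESeq2 called 3 in fasted livers, 1 in the mean and 2 for the interaction. Replicate numbers did not pair the samples, as same-numbered libraries of different groups correlated at -0.324 to 0.165 (median -0.084) in their deviations. The replicate block called 4, 3 and 11 genes for fasting in controls, in knockout-labelled livers and in the mean, and 0 elsewhere. Among 859 alternative values of named genes, 718 kept their side of the threshold and direction, 135 lost the call, 6 gained one and 0 turned. A missing adjusted p was counted here as not called. Depth limits Gstp2, Sult1e1, Sult3a1 and Ugt1a10, whose levels lay within a few counts of the floor of 3 in some libraries. Intervals of the spread rest on 3 animals per group.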
